A study of Mus musculus with 4 samples.

Results

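Collagens and matrix proteins form the scaffold that cells of the meninges and of vessel walls lay down around the embryonic brain. The genes described here are 10 genes of that kind, namely Col1a1, Col1a2, Col3a1, Col4a1, Col4a2, Fn1, Sparc, Lamb1, Nid1 and Twist1. They were chosen by name, with earlier results of these data known, and all 10 were found among the 16449 genes of the deposited count table. All 10 were also abundant enough to be tested, Col1a2 and Col3a1 only through their levels in the samples labelled knockout. They were measured by Nanopore long-read sequencing of poly(A)-enriched RNA from micro-dissected mouse dorsal and medial palliums at embryonic stage E11.5, the parts of the forebrain wall that give rise to neocortex and hippocampus. There were 2 libraries labelled WT and 2 labelled Tut1 knockout. According to the study's own list of these libraries, every embryo was homozygous for a floxed Tut1 allele, and the knockout differed from WT by the presence of Emx1-Cre. Emx1-Cre is driven by the Emx1 locus, which is active in neural stem and progenitor cells of the dorsal forebrain, so the mesenchyme and vessels around the pallium are not the cells that it is known for recombining. Tut1 encodes the terminal uridylyltransferase of U6 snRNA. How many embryos made up a library is not given, and p-values therefore measure only the spread between these libraries.

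As background, fibroblasts of the meninges deposit fibrillar collagens, whose rope-like triple helices give tensile strength. Endothelial cells, pericytes and meningeal cells all contribute to basement membranes, thin sheets in which a network of type IV collagen is joined to laminin by nidogen. The pial basement membrane covers the outer face of the neuroepithelium and anchors the end feet of radial glia. Fibronectin and the collagen-binding protein SPARC belong to many matrices, and the transcription factor TWIST1 is a regulator of cranial mesenchyme.

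The libraries held from 305642 to 397150 counts in all. These totals are far below the sequenced reads that the study lists, by a step that is not described. The lowest count of the 10 genes was 3, for Col1a2 in WT replicate 1. The targeted gene went against the labels, since Tut1 had 6 and 11 counts in WT but 29 and 25 in the KO-labelled libraries (log2 fold change 1.71 ± 0.40, SE, edgeR adjusted p = 0.0113). The floxed allele loses exon 2, and counts per gene do not show whether a read held that exon. Every direction given here follows the labels. WT replicate 1 was the single library with counts of the female-specific RNA Xist, 64 against 0 in each of the others. Markers of the labelled tissue were present, with Pax6 at 93 to 137 counts and Nes, which encodes nestin, at 89 to 111 counts per library. Emx1 had 6 and 7 counts in WT against 1 and 2, and it fell below the filter on low counts.

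Most of the collagen and matrix genes were more abundant in the KO-labelled libraries, but a single gene passed the threshold. Col1a2 rose 4.36-fold. The other 9 missed the threshold, an adjusted p of 0.05 in the quasi-likelihood test of edgeR over 5878 tested genes, and none of the 10 fell. Over all tested genes 2.06% passed, 1.4% higher and 0.663% lower in the KO-labelled libraries. At an unadjusted p below 0.05, 5 of the 10 genes were higher and 0 lower, against 7.88% and 6.31% of all tested genes. For 7 of the 10 genes each KO-labelled library was above each WT library, and for 0 each was below, against 22.1% and 20.8% of all tested genes. The log2 fold change was above 0 for 9 of the 10 genes, with a median of 0.75, while it was above 0 for 48.4% of all tested genes, whose median was -0.01. These counts describe genes chosen with earlier results of these data known, so they are not a test of an independent set. They depended on single libraries, as given below. In bulk tissue, more cells of a type and more RNA per cell cannot be told apart.

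**Figure D1:**
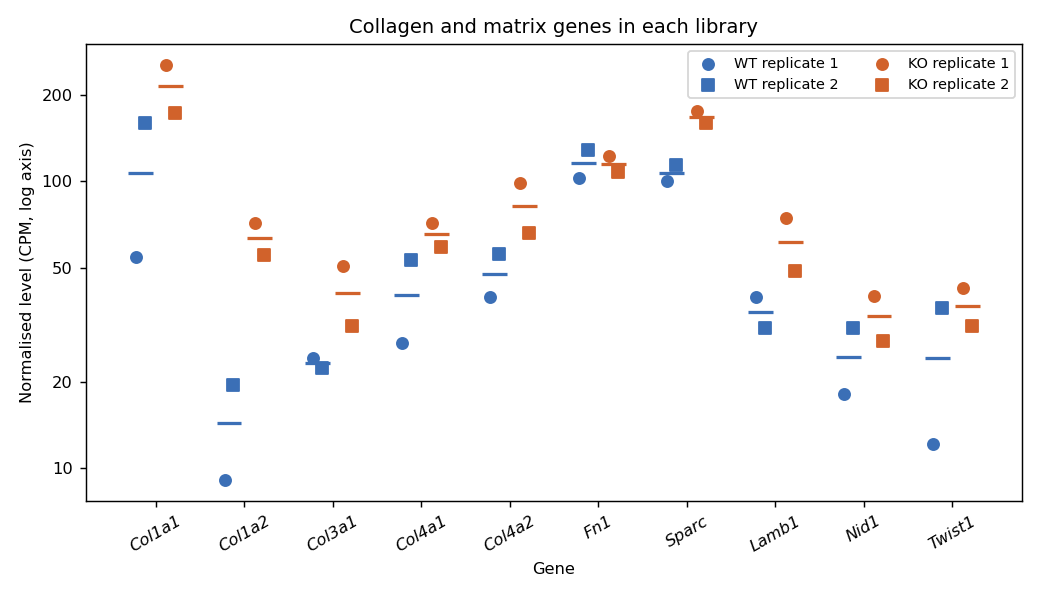
Normalised level of each collagen and matrix gene in CPM (counts scaled to library size, log axis), with circles for replicate 1 and squares for replicate 2, WT in blue, KO-labelled libraries (KO) in orange and a line at each group mean. The groups are separated for 7 genes, while they overlap for Fn1, Nid1 and Twist1, and WT replicate 1 is the lowest library for 8 of the 10 genes.

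The fibrillar collagens held the gene that changed most. Col1a1 and Col1a2 encode the chains that wind together into type I collagen, the main protein of fibrous connective tissue. Col1a2 (ENSMUSG00000029661; GRCm38 chromosome 6, 4504814 to 4541544, plus strand) had 3 and 7 counts in WT against 27 and 16 in the KO-labelled libraries. In CPM, the usual unit that scales counts to a common library size (here that of the tested genes, with TMM factors), these were 9.09 and 19.6 against 71.8 and 55.6. Both KO-labelled libraries were thus well above both WT libraries, and the log2 fold change was 2.12 ± 0.47 (SE, 95% interval 1.16 to 3.08, edgeR adjusted p = 0.00742). With so few counts in WT, Col1a2 passed the filter on low counts through the KO-labelled libraries alone. The call rested on few counts and was lost in edgeR without WT replicate 1 (adjusted p = 0.127) or either of the KO-labelled replicates 1 (0.347) and 2 (0.084), and of these 4 fits it held only in that without WT replicate 2 (0.00827), with log2 fold changes from 1.69 to 2.77. It was also lost in limma-voom (0.0872), after thinning to the smallest library (0.0637) and in DESeq2 without its independent filter (0.543).

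Col1a1 (ENSMUSG00000001506; chromosome 11, 94936224 to 94953042, plus strand) had 18 and 57 counts in WT against 96 and 50 in the KO-labelled libraries, or 54.5 and 159.2 against 255.1 and 173.7 CPM. WT replicate 2 was nearly as high as KO-labelled replicate 2, and WT replicate 1 stood far below the other 3 libraries. Its log2 fold change of 1.00 ± 0.29 (SE, 95% interval 0.41 to 1.59) missed the threshold at an adjusted p of 0.0602 in edgeR. It passed with no filter on low counts (0.0159), with a filter of 10 counts in 2 libraries (0.0349), in limma-voom (0.0222), with the bias-adjusted quasi-likelihood (0.0468) and without WT replicate 2 (0.000117), while without WT replicate 1 the log2 fold change was 0.44 and the adjusted p 0.647. It also missed the threshold without KO-labelled replicate 1 (0.678) or 2 (0.209), with the replicate block (0.105), after thinning (0.310) and in DESeq2. Per kilobase of the longest annotated transcript, the level of Col1a1 was 5.41 and 7.34 times that of Col1a2 in the WT libraries and 3.21 and 2.82 times in the KO-labelled libraries. These ratios rest on 3 and 7 counts of Col1a2 in WT, and the difference between the ratios was not tested.

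Col3a1 (ENSMUSG00000026043; chromosome 1, 45311538 to 45349706, plus strand) encodes type III collagen, which forms fibrils of extensible tissues such as vessel walls. It had 8 counts in each WT library and 19 and 9 in the KO-labelled libraries, or 24.2 and 22.3 against 50.5 and 31.3 CPM. The groups did not overlap, but KO-labelled replicate 2 exceeded WT by a single count. The log2 fold change was 0.84 ± 0.47 (SE) with an adjusted p of 0.445 in edgeR, and its 95% interval of -0.11 to 1.79 included both no change and a change of more than 2-fold. With 1 library left out the log2 fold change ran from 0.421 to 1.107.

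Stretches near the RefSeq starts of 3 of these genes are shown, since they cover the gene that was called, a second fibrillar collagen and the mesenchymal regulator. Each stretch lies upstream of a RefSeq start in GRCm38, on the plus strand and 5′ to 3′, and holds no exon of the GENCODE annotation. Capitals mark the CCAAT box, the letters TATAAA of the TATA box and the GC box GGGCGG, or their reverse complements.
Col1a2, chr6:4505370-4505492: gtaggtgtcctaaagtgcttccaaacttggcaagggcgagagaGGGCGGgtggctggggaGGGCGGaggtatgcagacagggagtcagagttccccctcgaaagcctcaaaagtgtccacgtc
Col3a1, chr1:45311288-45311537: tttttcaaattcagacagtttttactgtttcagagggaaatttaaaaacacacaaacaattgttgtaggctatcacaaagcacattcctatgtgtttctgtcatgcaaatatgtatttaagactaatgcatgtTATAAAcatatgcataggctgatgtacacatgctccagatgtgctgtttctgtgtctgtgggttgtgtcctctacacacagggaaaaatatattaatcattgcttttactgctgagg
Twist1, chr12:33957421-33957670: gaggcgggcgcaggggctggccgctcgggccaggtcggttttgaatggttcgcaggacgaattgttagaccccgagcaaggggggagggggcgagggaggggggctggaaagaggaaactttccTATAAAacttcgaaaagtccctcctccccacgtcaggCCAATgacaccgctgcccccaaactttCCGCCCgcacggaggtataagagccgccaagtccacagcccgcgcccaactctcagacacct
The Col1a2 stretch is shorter and lies within the annotated gene, with annotated Col1a2 exons on both sides of it. It held GGGCGG at 2 places, while the 2 matches to CCAAT in the promoter window of this gene lie in the part not shown. The stretch before Col3a1 held TATAAA at 1 place, and that before Twist1 held each of the 3 motifs at 1 place.

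RefSeq promoter windows, from 250 bases before to 50 after the start, were matched for 8 of the 10 genes, all but Col1a1 and Fn1. On either strand, CCAAT was found in 6 of the 8 windows and in 37.4% of 32851 windows of all genes. GGGCGG was found in 6 of the 8 and in 35.7% of all windows, and TATAAA in 2 of the 8, those of Col3a1 and Twist1, and in 13.6% of all. The E-box letters CANNTG, the kind of site that TWIST1 binds, were found in 3 of the 8 windows, those of Col3a1, Sparc and Lamb1, and in 72.3% of all windows. Each motif was searched on its own, so matches of different motifs may overlap, and a match is a description of the sequence. The windows of Col4a1 and Col4a2 share bases. The only GGGCGG of the Col4a1 window lies in the shared part and is counted for both genes.

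Col4a1 and Col4a2 encode the chains of the type IV collagen network found in all basement membranes. They lie head to head on chromosome 8. Col4a1 (ENSMUSG00000031502; 11198423 to 11312826) is on the minus strand and Col4a2 (ENSMUSG00000031503; 11312805 to 11449287) on the plus strand. Their first exons overlap by 22 bases, shown in capitals with 4 flanking bases on each side, as read on the plus strand at chr8:11312801-11312830.
Col4a1 and Col4a2: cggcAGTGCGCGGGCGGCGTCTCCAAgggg
Outside these bases the genes of the pair do not overlap.

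The pair had the same order across libraries. Col4a1 had 9 and 19 counts in WT against 27 and 17 in the KO-labelled libraries, or 27.3 and 53.1 against 71.8 and 59.0 CPM. Col4a2 had 13 and 20 against 37 and 19 counts, or 39.4 and 55.9 against 98.3 and 66.0 CPM. For both genes WT replicate 1 was the lowest library and KO-labelled replicate 1 the highest, and the groups did not overlap. The log2 fold changes were 0.70 ± 0.38 for Col4a1 and 0.80 ± 0.35 for Col4a2 (SE), and neither passed in edgeR, with adjusted p of 0.436 and 0.268. With 1 library left out they ran from 0.306 to 1.253 for Col4a1 and from 0.46 to 1.07 for Col4a2. Per kilobase of the longest transcript, Col4a2 stood at 1.48 and 1.08 times Col4a1 in WT and at 1.41 and 1.15 times in the KO-labelled libraries, so that the ratio overlapped between the groups.

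Of the proteins that join this network, Lamb1 and Nid1 were measured. Lamb1 (ENSMUSG00000002900; chromosome 12, 31265234 to 31329644, plus strand) encodes the β1 chain of laminins. It had 13 and 11 counts in WT against 28 and 14 in the KO-labelled libraries, or 39.4 and 30.7 against 74.4 and 48.6 CPM. Here WT replicate 1 was the higher WT library, unlike in most of the other genes. Its log2 fold change was 0.84 ± 0.39 (SE, edgeR adjusted p = 0.316), and it ran from 0.474 to 1.085 with 1 library left out. Nid1 (ENSMUSG00000005397; chromosome 13, 13437551 to 13512269, plus strand) encodes nidogen 1, the link between laminin and type IV collagen. It had 6 and 11 counts in WT against 15 and 8 in the KO-labelled libraries, or 18.2 and 30.7 against 39.9 and 27.8 CPM. The groups overlapped, and the log2 fold change of 0.48 ± 0.49 (SE, adjusted p = 0.746 in edgeR) was no larger than its error. With 1 library left out the log2 fold change ran from 0.16 to 0.902.

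Sparc and Fn1 encode matrix glycoproteins. Sparc (ENSMUSG00000018593; chromosome 11, 55394500 to 55423183, minus strand) encodes a secreted protein that binds collagens. It had 33 and 41 counts in WT against 66 and 46 in the KO-labelled libraries. At 99.96 and 114.5 against 175.4 and 159.8 CPM its replicates lay close together, and the groups were apart. The log2 fold change was 0.64 ± 0.26 (SE, edgeR adjusted p = 0.211), and it stayed between 0.55 and 0.74 whichever library was left out. Fn1 (ENSMUSG00000026193; chromosome 1, 71585520 to 71653200, minus strand) encodes fibronectin, which links cells to collagen through integrins. It had 34 and 46 counts in WT against 46 and 31 in the KO-labelled libraries, or 103.0 and 128.5 against 122.2 and 107.7 CPM. The libraries were intermixed, and the log2 fold change was -0.01 ± 0.27 (SE, adjusted p = 0.998 in edgeR). Its 95% interval ran from -0.55 to 0.54, and its sign changed with the setting.

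Twist1 (ENSMUSG00000035799; chromosome 12, 33957671 to 33959829, plus strand) is the member whose product is no matrix protein but a basic helix-loop-helix transcription factor. It had 4 and 13 counts in WT against 16 and 9 in the KO-labelled libraries, or 12.1 and 36.3 against 42.5 and 31.3 CPM. WT replicate 2 lay between the KO-labelled libraries, and WT replicate 1 stood below the other 3 libraries. The log2 fold change was 0.60 ± 0.50 (SE, edgeR adjusted p = 0.657) with all libraries and 0.04 without WT replicate 1.

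**Figure D2:**
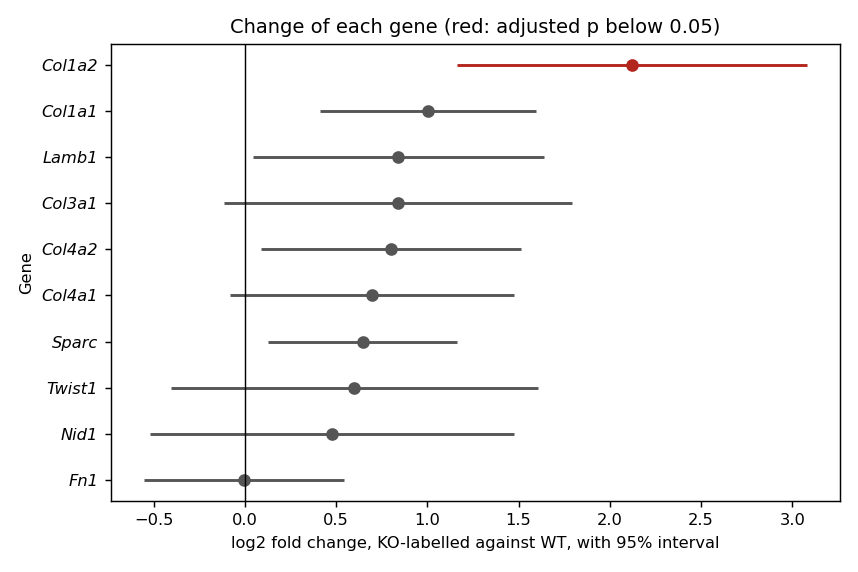
Log2 fold change of each gene, KO-labelled libraries (KO) against WT, with its 95% interval from the edgeR fit, ordered by size. Col1a2 (red) is the only gene past an adjusted p of 0.05, at 2.12, and the intervals of Col3a1, Col4a1, Twist1, Nid1 and Fn1 include 0.

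The order of the levels depended on whether they were divided by transcript length. Per kilobase of the longest transcript, Sparc was highest in every library, at 43.5 and 49.8 CPM per kilobase in WT and 76.3 and 69.5 in the others, and Col1a1 came next in the KO-labelled libraries, at 43.0 and 29.3. In CPM without length, Col1a1 exceeded Sparc in 3 of the 4 libraries, all but WT replicate 1. A long read can stand for a whole transcript, in which case dividing by length favours short transcripts such as those of Sparc (2300 bases) and Twist1 (1628 bases). Col1a2 was lowest per kilobase in both WT libraries, at 1.7 and 3.66, and Nid1 in both KO-labelled libraries, at 6.54 and 4.56.

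The 10 genes also differed between replicates of a group. Their counts came to 141 and 233 in WT and to 377 and 219 in the KO-labelled libraries, which is 0.0391% and 0.0594% of all counts in WT and 0.0949% and 0.0717% in the others. Summed over the genes, the level was 427.1 and 650.8 CPM in WT (mean 538.9 ± 158.2, SD, n = 2) and 1001.8 and 760.7 CPM in the KO-labelled libraries (mean 881.3 ± 170.5, SD, n = 2). KO-labelled replicate 1 was the highest library for 9 of the 10 genes, and WT replicate 2 for Fn1. WT replicate 1 was the lowest for 8 genes, and WT replicate 2 for Col3a1 and Lamb1. The gap between KO-labelled replicate 2 and WT replicate 2, the libraries in the middle, was smaller than the gap between the WT replicates.

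These values moved when a library was left out. Each such fit leaves 1 library in a group, so the spread between replicates in it comes from the other group alone. Without WT replicate 1, which leaves libraries without Xist counts, the median log2 fold change of the 10 genes was 0.49. Without WT replicate 2 it was 0.99, and without KO-labelled replicates 1 and 2 it was 0.47 and 0.92. Calls among the 10 came and went between these fits, in which the number of calls over all genes varied too. DESeq2 with all libraries called 0 of the 10. The KO-labelled libraries lay above WT without overlap for 7 genes without WT replicate 1 (35.3% of all tested genes) and for 10 without WT replicate 2 (35.9%). They did so for 7 genes without KO-labelled replicate 1 and for 9 without replicate 2 (35.8% of all in either case).

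**Figure D3:**
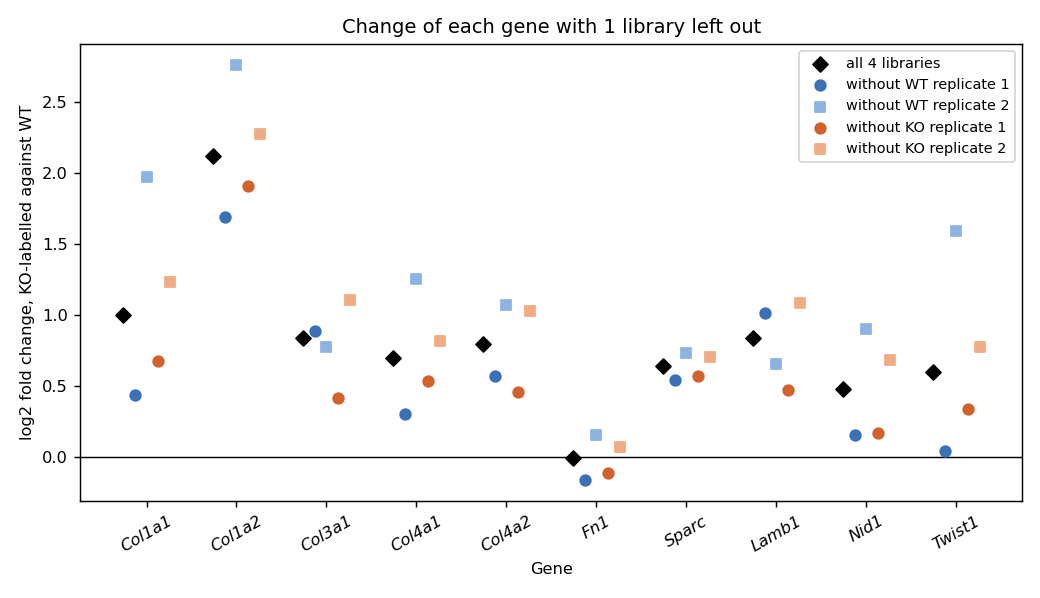
Log2 fold change of each gene, KO-labelled libraries (KO) against WT, with all 4 libraries (black diamonds) and with each library left out in turn. Col1a2 is above 1.69 in every case, while Twist1 ranges from 0.04 to 1.59 and Fn1 lies on both sides of 0.

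Around these genes, other matrix genes were compared from lists. Of 39 other collagens, 16 had a row and 4 were tested. Col5a1, a chain of the type V collagen that nucleates type I fibrils, rose from 10 and 23 to 44 and 32 counts, by 1.25 ± 0.33 on the log2 scale (SE, edgeR adjusted p = 0.0335). Its call was lost with the replicate number as a block (0.0595), after thinning (0.136) and in DESeq2 (0.587). Without WT replicate 1 its log2 fold change was 0.82, and without KO-labelled replicates 1 and 2 it was 1.21 and 1.28. The call was also lost in these fits, each of which leaves 1 library in a group. The more abundant Col11a1 (71 and 86 against 113 and 50 counts) and Col4a5 (24 and 32 against 54 and 22 counts) were not past the threshold, and the median log2 fold change of the 4 was 0.29. Other basement membrane and matrix proteins had 35 of 46 genes with a row and 7 tested, of which 0 were called in either direction by edgeR, DESeq2 or limma-voom. Of these 7, 1 was higher and 1 lower at an unadjusted p below 0.05, and their median was 0.03. Fbn1, the microfibril protein fibrillin 1, had 19 and 35 against 28 and 25 counts, and the microfibril-associated Mfap2 had 23 and 31 against 28 and 15.

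The enzymes and chaperones that fold, hydroxylate and cross-link collagen were then compared. Of 32 listed genes, 29 had a row and 9 were tested, and 0 were called by edgeR, DESeq2 or limma-voom, with 0 at an unadjusted p below 0.05 in edgeR. Their median log2 fold change was 0.24, with 7 of 9 above 0. Serpinh1, the collagen chaperone HSP47, had 30 and 32 counts in WT against 53 and 35 in the KO-labelled libraries, a log2 fold change of 0.55 ± 0.27 (SE, edgeR adjusted p = 0.359). Mia3, which serves the export of collagen from the endoplasmic reticulum, had 24 and 39 against 22 and 24 counts. Among receptors for these matrices, 7 of 25 listed genes were tested with a median of -0.13, and 0 were called by edgeR, DESeq2 or limma-voom, with 1 higher at an unadjusted p below 0.05. The collagen receptor Ddr1 had 70 and 63 against 62 and 51 counts. Adgrg1, a receptor of radial glia for type III collagen, had 177 in each WT library against 175 and 132 counts.

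Markers of the cell types that can hold such transcripts were summed in each library. Meningeal mesenchyme markers (25 of 31 with a row) came to 421.0 and 762.5 CPM in WT and to 1381.8 and 781.5 CPM in the KO-labelled libraries, so that WT replicate 1 was lowest and KO-labelled replicate 1 highest, as for the 10 genes. Of this list 6 genes were tested, all with a log2 fold change above 0 (median 1.01), against 48.4% of all tested genes. In edgeR 5 were higher at an unadjusted p below 0.05, against 7.88% of all tested genes. For 3 of the 6 each KO-labelled library was above each WT library, against 22.1% of all tested genes. Only Igf2, an imprinted growth factor, was called, with 41 and 63 against 180 and 52 counts (1.16 ± 0.27, SE, edgeR adjusted p = 0.011). Its log2 fold change was 0.26 and its adjusted p 0.839 without KO-labelled replicate 1, and the call was also lost without WT replicate 1 (0.0649), with the replicate block (0.0595), after thinning (0.254) and in DESeq2. The most abundant of the others were Zic1 (33 and 99 against 138 and 72 counts) and Zic4 (8 and 29 against 55 and 15 counts), which neural progenitors near the midline also express. The other 19 markers with a row were below the filter, with 21 and 37 counts together in WT against 74 and 27. Of these, 5 were higher in both KO-labelled libraries, 3 were lower, 8 overlapped and 3 had 0 counts in every library, Snai1 and Snai2 among the last. Tbx18 had 1 and 4 against 15 and 0 counts and decorin (Dcn) had 1 and 5 against 14 and 5, while Crabp2 had 6 and 2 against 1 and 1 and Prrx1 had 3 and 4 against 3 and 0.

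Endothelial markers (21 of 22 with a row) came to 309.0 and 360.3 CPM in WT and to 579.3 and 482.8 CPM in the KO-labelled libraries. All 4 tested endothelial genes were higher in both KO-labelled libraries, against 22.1% of all tested genes, with a median log2 fold change of 0.72. None of the 4 was called by edgeR, DESeq2 or limma-voom. In edgeR 2 were higher at an unadjusted p below 0.05, against 7.88% of all tested genes. The other 17 markers with a row were below the filter, with 30 and 49 counts together in WT against 71 and 41. Of these, 4 were higher in both KO-labelled libraries, 1 was lower, 11 overlapped and 1 had 0 counts in every library. Egfl7 had 40 and 45 against 78 and 54 counts, and Flt1, a receptor for VEGF, had 17 and 16 against 26 and 19, while Sox18 had 0 counts in every library. Pericyte and mural markers (12 of 16 with a row) came to 84.8 and 220.7 against 279.1 and 180.6 CPM and overlapped. Of these, 2 were tested and 0 were called by edgeR, DESeq2 or limma-voom, with 0 at an unadjusted p below 0.05. Acta2, the actin of smooth muscle, had 5 and 43 against 43 and 15 counts, and Tagln, its binding protein, had 7 and 15 against 20 and 10. The pericyte receptor Pdgfrb had 1 and 3 against 5 and 2 counts. The part that these cell types had in the levels of the 10 genes was not tested.

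**Figure D4:**
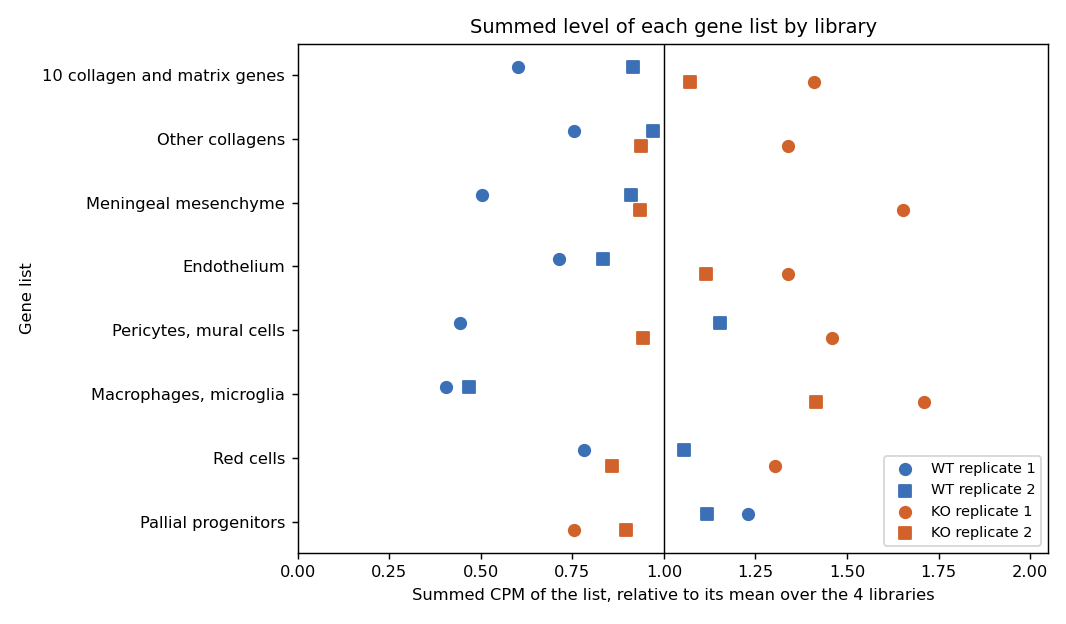
Summed CPM of the 10 collagen and matrix genes and of 7 marker lists in each library, divided by the list's mean over the 4 libraries, with WT in blue, KO-labelled libraries (KO) in orange, circles for replicate 1 and squares for replicate 2. WT replicate 1 is low and KO-labelled replicate 1 high for the collagen and matrix genes, the other collagens and the mesenchymal, vascular and red cell lists, while the pallial progenitor sum, which includes Lhx2, is higher in WT.

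The sum of pallial progenitor markers was higher in WT, at 2698.8 and 2455.1 CPM in WT and 1658.3 and 1969.3 CPM in the KO-labelled libraries. Of 11 tested, 1 was called and it was lower, the transcription factor gene Lhx2, with 348 and 272 against 106 and 106 counts (log2 fold change -1.49 ± 0.18, SE, edgeR adjusted p = 6.48e-07). Without KO-labelled replicate 1 its adjusted p was 0.0539. Lhx2 alone fell from 1054.0 and 759.7 CPM to 281.7 and 368.2 CPM. Without it, a sum added after the values were seen, the list came to 1644.8 and 1695.4 CPM in WT and 1376.6 and 1601.1 CPM in the others, and WT replicate 1 was no longer the highest library. The median log2 fold change of the 11 was -0.15.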

How the data were processed

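The deposited table holds raw read counts per gene, which the authors made from Nanopore reads mapped to Ensembl's mouse transcripts by minimap2 and quantified by FLAIR (build GRCm38 per the labels). The way isoforms were added up and any use of strand are not given in the sources used here. The counted totals are far below the numbers of sequenced reads that the study lists, and what removed the other reads is likewise not given. Apart from Col4a1 and Col4a2, genes that overlap the members held at most 2 counts in a library. Symbols and 1-based positions came from GENCODE M21 on GRCm38, which matched 16436 of 16449 identifiers. Sequences came from RefSeq (GRCm38.p6).

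Tests used edgeR 4.0.16 under R 4.3.3 (filterByExpr with default settings, minimum count 10 and total 15, TMM, glmQLFit and glmQLFTest in default form, two-sided, no covariate), and the Benjamini-Hochberg adjustment ran over 5878 genes. Dividing the log2 fold change by the root of its F statistic gave the SE. Intervals use the test's degrees of freedom. Replicates differed by more than counting noise (chi-square per degree of freedom 1.64 for WT, 1.49 for KO). In simulated counts of 5878 genes for this comparison, 39.3% of 2-fold and 90.0% of 4-fold changes were found, with 4.7% and 4.8% of calls false. These percentages are over all levels together. The share found at counts as low as those of Col1a2 was not tested, nor was the share of false calls in the measured counts. DESeq2 1.42.0 and limma 3.58.1 (voom) were alternatives.

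The genes and lists were chosen with earlier results of these data known. All 10 members and Tut1 were always named. From each other list, up to 5 called genes were named by smallest p, and where fewer than 2 were called, the 2 tested genes with the highest mean count. Other genes, such as Xist, Emx1, Sox18, Snai1, Snai2, Tbx18, Dcn, Crabp2, Prrx1, Pdgfrb, Krt8, Epcam and Tfap2c, were picked with their values in view.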

Additional observations from a re-analysis of the deposited data

How the results depend on the processing

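The number of genes called was 121, 67.8% of them higher, and with library totals only it was 129, 81.4% of them higher. It fell to 12 in DESeq2, 9 in DESeq2 without its independent filter (an alternative added after the data were seen) and 16 after thinning to the smallest library, and ranged from 3 to 108 when 1 library was left out. With the replicate number as a block it was 76. The labels give no shared origin for libraries of the same number, and their deviations from the group means were not correlated (r = -0.06 across genes), so the block was kept as an alternative. It changed no call among the 10 genes and called 6 genes on the other lists. Of the 10 genes, 1 was called in the reported fit, 2 with no filter, with 10 counts in 2 libraries and with the bias-adjusted quasi-likelihood, 0 in DESeq2 with or without its filter (which gave an adjusted p for 3 and for 10 of them) and 0 after thinning, where 7 were tested. Leaving out 1 library gave 0 to 2. Fn1 turned from -0.01 to 0.057 with library totals only, 0.001 in limma-voom and with the replicate block, 0.156 without WT replicate 2 and 0.075 without KO replicate 2, and was lowest, at -0.16, without WT replicate 1. Of the genes on the other lists 9 were called, against 1 in DESeq2 with or without its filter and 2 after thinning, and 0 to 11 when 1 library was left out. The cause was not tested, except that thinning and leaving out a library lower the counts and samples by construction. The 4 summed levels moved by less than the spread between replicates under both other scalings. In WT, 7 of the 10 genes had at most 20 counts per library, which limits what could be detected.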

Other observations

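Lists that belong to none of the comparisons above are given as values. Macrophage and microglia markers (15 of 16 with a row) came to 106.0 and 122.9 CPM in WT and to 449.0 and 371.7 CPM in the KO-labelled libraries. All 4 tested genes were called by edgeR (3 by limma-voom and 0 by DESeq2), the fractalkine receptor Cx3cr1 (6 and 6 against 32 and 27 counts), Aif1 (9 and 6 against 39 and 21), the growth factor receptor Csf1r (16 and 20 against 58 and 34) and the adaptor Tyrobp (1 and 4 against 16 and 13). Of all tested genes, edgeR called 2.06%. Cx3cr1, Aif1 and Tyrobp passed the filter on low counts through the KO-labelled libraries alone, so the filter favoured genes that were higher there. The other 11 markers with a row were below the filter, with 3 and 8 counts together in WT against 24 and 12. Of these, 3 were higher in both KO-labelled libraries, 0 were lower and 8 overlapped. Without KO-labelled replicate 1 the log2 fold changes were 2.40 for Cx3cr1, 1.72 for Aif1, 1.17 for Csf1r and 2.58 for Tyrobp. The calls were lost in this edgeR fit, which leaves 1 library in a group. Csf1r and Tyrobp also missed the threshold without WT replicate 1 (0.0574 and 0.205) and without KO-labelled replicate 2 (0.0616 and 0.232), and Tyrobp did so with the replicate number as a block (0.0557). After thinning, Aif1 (0.0697), Csf1r (0.0704) and Tyrobp (0.0726) missed it.

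Proteins of the neural matrix (17 of 19 with a row, 6 tested) had a median log2 fold change of 0.15. None was called by edgeR, DESeq2 or limma-voom, and 1 was higher at an unadjusted p below 0.05. The proteoglycan versican (Vcan) had 42 and 56 counts in WT against 59 and 37 in the KO-labelled libraries, and Gpc6 had 46 and 66 against 49 and 32. Red cell markers came to 1384.3 and 1868.6 against 2309.5 and 1521.2 CPM. Of 6 tested, the embryonic globin Hbb-bh1 was called and lower by edgeR (16 and 47 against 4 and 13 counts, log2 fold change -1.80, adjusted p = 0.0279). Its call was lost without WT replicate 2 (-0.92, adjusted p = 0.565), without KO-labelled replicate 1 (-1.004, 0.630) or 2 (-3.06, 0.0899), after thinning (0.284) and in DESeq2 without its independent filter. By comparison, Hba-a1 had 205 and 275 against 383 and 177 and Hba-a2 173 and 226 against 329 and 163. Reads of these globin copies may be split between them.

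Choroid plexus and hem markers came to 242.3 and 488.8 against 627.2 and 312.6 CPM. Of 4 tested, Ttr, which encodes the thyroid hormone carrier transthyretin, was called and higher (31 and 26 against 114 and 29 counts), with an adjusted p in edgeR of 0.864 without KO-labelled replicate 1 and 0.0518 without WT replicate 2, and 0.257 after thinning. DESeq2 did not call it. Otx2 had 11 and 34 against 44 and 7 counts, and Wnt8b 7 and 47 against 15 and 7. Surface ectoderm markers (6 of 14 with a row) came to 45.4 and 75.4 against 61.1 and 66.0 CPM. The 1 tested gene, Tfap2a, had 9 and 14 against 15 and 11 counts. Of the others, Tfap2c had 4 to 8 counts per library, Epcam 0 to 3 and Krt8 0 to 1.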
